A study of Homo sapiens with 12 samples.

Results

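Interferon-stimulated genes are the antiviral genes that cells switch on through the JAK-STAT pathway when interferon binds its receptors. Here 43 of them were followed in LM cells, a lung metastatic subline of the MDA-MB-231 breast cancer line, taken as a list of symbols and matched by symbol in the platform annotation. The knockdown cells (KD) were a stable line made by lentiviral transduction of a short hairpin RNA against BHLHE40, a transcription factor induced by hypoxia. The control cells (EV) were pooled drug-resistant LM colonies carrying the control vector. Cells of both lines were cultured with puromycin and were either untreated (0 h) or kept in 1% O2 with low glucose (1 mg/ml) for 6 h or 48 h. The 1 mg/ml comes from the sample labels, whereas the array methods of the study name the oxygen level alone. There were no untreated cultures at 6 h or 48 h. Effects of low oxygen, low glucose and time in culture therefore cannot be told apart. Total RNA was hybridized to Illumina HT-12 bead arrays, 12 in all, with 2 arrays in each of the 6 groups. The arrays of a group lie on different slides. The methods name 2 independent experiments, and arrays of 1 slide are referred to as 1 experiment. Since there was 1 knockdown line and 1 control line, an effect of the hairpin and any other difference between those lines cannot be told apart.

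Interferons reach the nucleus through their receptors, the kinases JAK1 and TYK2, and a complex of STAT proteins with IRF9, which binds a short promoter element called the interferon-stimulated response element. Many of the induced proteins act on viral RNA in the cytoplasm, others hold virus at membranes, and a further set tags proteins with the ubiquitin-like modifier ISG15. In tumor cells a subset of these genes is often expressed with no virus present. Of the 43 genes, 42 had a probe, 64 probes in all. STAT2 was not analysed here. Probes counted as detected at a detection p under 0.05, against the negative control beads. Keeping those detected on both arrays of any group left 54 probes and 40 genes out of 12336 genes tested. CMPK2 and TRIM22 were not kept, with detection on 1 and 0 of the 12 arrays. Of the 40 genes, 34 were detected on all 12 arrays.

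Promoters are printed to show the response element in members that the results turn on. Of the 9 members with a window and at least 3 comparisons called, 5 hold the element, and these 5 were chosen for holding it. It was searched as GAAA, any 2 bases and GAAA on both strands, in windows of 250 bases before to 50 bases after each RefSeq transcript start (GRCh38.p14). A match on the opposite strand reads TTTC, any 2 bases and TTTC. Capitals mark the matches, and overlapping matches run together as in BST2.
BST2 (chr19:17405681-17405800, minus strand): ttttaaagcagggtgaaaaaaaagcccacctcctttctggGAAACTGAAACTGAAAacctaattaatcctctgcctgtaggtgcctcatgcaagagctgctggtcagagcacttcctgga
IFIT3 (chr10:89327801-89327924, plus strand): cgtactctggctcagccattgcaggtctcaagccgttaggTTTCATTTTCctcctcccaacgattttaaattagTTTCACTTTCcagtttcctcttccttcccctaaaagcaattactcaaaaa
IFI27 (chr14:94110588-94110707, plus strand): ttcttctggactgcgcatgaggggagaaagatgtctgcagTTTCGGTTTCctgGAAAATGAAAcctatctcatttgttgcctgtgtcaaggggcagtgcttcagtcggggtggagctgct
IFITM1 (chr11:313960-314083, plus strand): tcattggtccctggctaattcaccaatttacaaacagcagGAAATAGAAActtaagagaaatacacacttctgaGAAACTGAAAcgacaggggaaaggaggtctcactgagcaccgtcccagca
IFIT1 (chr10:89392467-89392586, plus strand): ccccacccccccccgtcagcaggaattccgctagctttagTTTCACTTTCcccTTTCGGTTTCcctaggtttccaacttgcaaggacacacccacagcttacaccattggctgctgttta
At least 1 match was present in 28 of 47 windows of the members (59.6%), and in 1255 of all 35116 windows (3.57%). The 47 windows belong to 34 members, of which 23 held a match in a window. Windows of RIGI, IRF1, SP110 and HERC6 held none, which says only that these letters are not there. IFIT2, IFITM2, MX2, OAS2, OASL, DHX58, IRF7, USP18 and TRIM22 had no window in the table used. Of the members described below as lower at 48 h, 6 of the 10 with a window held a match, and of those lower in KD cells at any time 9 of 12 did.

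BHLHE40, the gene targeted by the hairpin, had a normalized signal of 1771 and 1444 at 0 h, 3410.3 and 4324 at 6 h and 3198 and 3585 at 48 h in KD cells. In EV cells BHLHE40 had 2992 and 2716, 4283 and 6795, and 3365 and 6482 at these times. Each pair of values gives experiments 1 and 2 in this order, here and below. KD values were below EV values in all 6 matched pairs. As log2 fold changes, KD against EV was -0.83 (SE 0.29, adjusted p = 0.0894) at 0 h, -0.49 (adjusted p = 0.286) at 6 h and -0.46 (adjusted p = 0.322) at 48 h, so the difference in RNA did not pass the test at any time. By immunoblotting, the study reports that the hairpin lowered BHLHE40 protein in LM cells, both at baseline and under hypoxia. All tests are by limma on log2 of the signal, with the 6 groups and the slide in the model and p-values adjusted over the 12336 genes (Benjamini-Hochberg). A gene is called at an adjusted p under 0.05. With 2 arrays in a group the precision is limited, and the labels do not say how the cultures of the 2 slides were grown. On each array 20298 to 21830 probes were detected, and the dimmest detected probe had a signal of 42.2 to 51.8. Markers of MDA-MB-231 cells (VIM, CD44, AXL, CAV1, MSN, LGALS1) were detected on all 12 arrays, while PGR was detected on 0, ESR1 on 1 and CDH1 on 2 arrays. GATA3, listed as absent in this cell type, was detected on 11 arrays with signals of 42.2 to 174.7.

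At 48 h of hypoxia and low glucose 6 of the 40 tested members (15%) were lower than at 0 h in EV cells. These were IFIT1, IFIT2, IFIT3, OAS2, OASL and HERC6, against 0.778% of all genes tested that were lower in that comparison. None was higher. In KD cells 13 members (32.5%) were lower and 0 were higher, where 2.75% of all genes were lower, and the 13 included the same 6. The median log2 fold change of the 40 members was -0.72 in KD and -0.32 in EV cells, beside -0.03 and -0.02 over all genes. By the rule of the study, a fold of at least 1.5 in both experiments, 19 members (47.5%) were lower at 48 h in KD cells and 12 (30%) in EV cells, where 5.01% and 3.64% of all genes were. In RNA from whole cultures, fewer cells expressing a gene and less RNA in each cell cannot be told apart.

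IFIT1, IFIT2 and IFIT3 are cytoplasmic proteins that bind RNA and block the translation of viral messages. IFIT1 had signals of 4072 and 2909.8 at 0 h, 3952 and 3079 at 6 h and 894 and 1065 at 48 h in KD cells. In EV cells IFIT1 had 5069 and 5771, 4296 and 6255, and 1319 and 1802. The 48 h arrays lay below the 0 h and 6 h arrays in both lines, with 48 h log2 fold changes of -1.82 (SE 0.27, adjusted p = 0.0195) in KD and -1.81 (SE 0.27, adjusted p = 0.037) in EV cells. For IFIT2 the signals were 4561 and 2911 at 0 h, 2289 and 2124 at 6 h and 878 and 875 at 48 h in KD cells. In EV cells IFIT2 had 4076 and 5227, 2481 and 3489, and 1021 and 1416. Its 6 h arrays read below the 0 h arrays of the same line, although that comparison did not pass, and the 48 h changes were -2.06 (adjusted p = 0.0169) in KD and -1.94 (adjusted p = 0.0363) in EV cells. IFIT3 read 2573 and 2660.2 at 0 h, 1439 and 988 at 6 h and 666 and 591 at 48 h in KD cells. In EV cells IFIT3 had 3595 and 4377, 2011 and 2577, and 935 and 1153. Its 48 h change was -2.06 (SE 0.23, adjusted p = 0.0105) in KD and -1.93 (SE 0.23, adjusted p = 0.0215) in EV cells, which are 4.17-fold and 3.82-fold falls. The 3 probes of IFIT3 had 48 h log2 fold changes of -2.06 to -1.01 in KD and -2.22 to -1.04 in EV cells, and 2 of the 3 passed in each line in a fit over all kept probes.

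OAS2 and OASL belong to the oligoadenylate synthetase family, in which OAS2 makes the messenger that activates RNase L and OASL lacks this activity. The OAS2 signal was 347 and 309 at 0 h, 137 and 206 at 6 h and 40.6 and 46.8 at 48 h in KD cells. In EV cells OAS2 had 207 and 276, 88.2 and 238, and 37.7 and 81.7. At 48 h it was detected on 0 of 2 arrays in KD and on 1 of 2 in EV cells, and on both arrays of each line at 0 h. Where a probe was detected on neither array of a group, a fold is given as a lower limit, against the dimmest detected signal of those arrays, and by this OAS2 in KD cells fell at least 6.97-fold by 48 h, with an adjusted p of 0.0131. In EV cells its log2 fold change was -2.11 (SE 0.36, adjusted p = 0.0431). In the fit over all kept probes this probe had an adjusted p of 0.0504 in EV cells, and the second OAS2 probe had 0.0194. The second OAS2 probe was dimmer at 48 h as well, with signals of 20.5 and -0.779 in KD and 1.41 and 12.9 in EV cells, against 346 and 177 in KD and 268 and 329 in EV cells at 0 h. OASL had 1549 and 1480.5 at 0 h, 885 and 829 at 6 h and 283 and 298 at 48 h in KD cells. In EV cells OASL had 1082 and 1690.0, 789 and 1341, and 336 and 542. Every 48 h array was below every 0 h and 6 h array, with changes of -2.38 (SE 0.26, adjusted p = 0.0105) in KD and -1.67 (SE 0.26, adjusted p = 0.0381) in EV cells. HERC6 encodes a HECT-type ubiquitin ligase related to HERC5. Its signals were 1843 and 1498 at 0 h, 1213 and 1104 at 6 h and 913 and 797 at 48 h in KD cells. In EV cells HERC6 had 1413 and 1423, 1003 and 1129.5, and 821 and 815. The changes were smaller, -0.96 (adjusted p = 0.0193) in KD and -0.79 (adjusted p = 0.044) in EV cells.

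**Figure D1:**
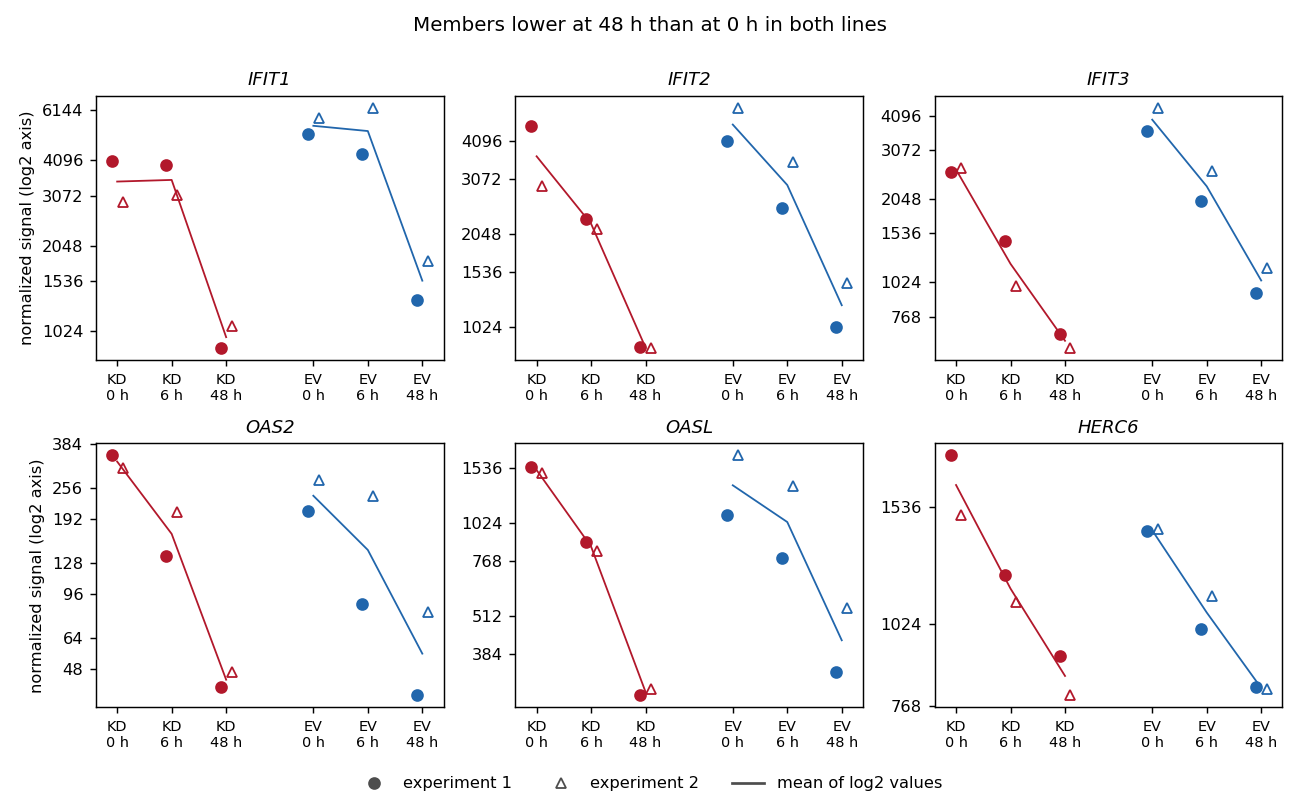
Normalized signal (log2 axis) of the 6 members that were lower at 48 h than at 0 h in both lines, for each of the 12 arrays, with KD groups on the left and EV groups on the right and lines through the means of the log2 values. In every panel the 48 h arrays lie below the 0 h arrays of the same line, as for IFIT3 with 666 and 591 at 48 h against 2573 and 2660.2 at 0 h in KD cells.

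Another 7 members passed the test at 48 h in KD cells and not in EV cells. ISG15 encodes the ubiquitin-like modifier itself, and its signals were 13615 and 16415 at 0 h, 16186 and 13826 at 6 h and 4784 and 5972 at 48 h in KD cells. In EV cells ISG15 had 8671 and 13996, 9612 and 14450.0, and 4244 and 6298. Its 48 h change was -1.48 (SE 0.22, adjusted p = 0.0195) in KD and -1.09 (SE 0.22, adjusted p = 0.0551) in EV cells, where the EV value was just outside the threshold, and all 48 h arrays were below all 0 h arrays. IRF1, a transcription factor that activates many of these genes, had 615 and 453 at 0 h, 253 and 244 at 6 h and 223 and 196 at 48 h in KD cells. In EV cells IRF1 had 619 and 637, 478 and 409, and 304 and 370.5. It changed by -1.34 (SE 0.18, adjusted p = 0.0166) in KD and by -0.90 (SE 0.18, adjusted p = 0.0522) in EV cells, and the groups did not overlap in either line. RIGI encodes the cytoplasmic helicase that recognises viral RNA, and its probe read 381 and 342 at 0 h, 231 and 166 at 6 h and 188 and 101 at 48 h in KD cells. In EV cells RIGI had 728 and 812, 582 and 551, and 434 and 340.2. Its 48 h change was -1.39 (adjusted p = 0.0249) in KD cells and -1.0 (adjusted p = 0.0776) in EV cells.

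MX1, a dynamin-like GTPase that traps viral particles, had 592 and 544 at 0 h, 324 and 437 at 6 h and 244 and 307 at 48 h in KD cells. In EV cells MX1 had 394 and 494, 315 and 501, and 289 and 459. The 48 h change was -1.05 (adjusted p = 0.0338) in KD and -0.28 (adjusted p = 0.48) in EV cells, where the groups overlapped. The signals of IFI44, an interferon-induced gene, were 4739 and 3542 at 0 h, 3182 and 2688 at 6 h and 2293 and 1796 at 48 h in KD cells. In EV cells IFI44 had 5369 and 6146, 3864 and 4918, and 3402 and 4139. The 48 h change was -1.01 (adjusted p = 0.0477) in KD and -0.61 (adjusted p = 0.179) in EV cells. In the fit over all kept probes the KD change of IFI44 had an adjusted p of 0.054 and did not pass. SP110, a nuclear body protein, was 1028 and 877 at 0 h, 528 and 535 at 6 h and 513 and 497 at 48 h in KD cells. In EV cells SP110 had 454 and 487, 336 and 369.9, and 404 and 336. It was lower at 48 h in KD cells (-0.91, adjusted p = 0.0206), and the EV value was -0.35 (adjusted p = 0.209). The other kept SP110 probes had -0.66 to -0.45 in KD cells and did not pass in the fit over all kept probes. BST2, or tetherin, which holds budding virions at the cell surface, had 415 and 522 at 0 h, 303 and 526 at 6 h and 171 and 266 at 48 h in KD cells. In EV cells BST2 had 702 and 1060.0, 688 and 1296, and 702 and 1325. It was lower at 48 h in KD cells (-1.13, SE 0.16, adjusted p = 0.0195) with a value of 0.16 (adjusted p = 0.64) in EV cells, where the groups overlapped.

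These separate calls do not show that the lines responded differently. The difference itself, the KD change minus the EV change, passed the test for 0 of 40 members at 48 h and 0 at 6 h, where 0% and 0.0243% of all genes did by limma. At an unadjusted p under 0.05 the members numbered 6 (15%) at 48 h and 2 (5%) at 6 h, beside 6.76% and 6.13% of all genes. The 6 at 48 h were BST2, IFITM2, IFI27, SP110, MX1 and MX2, all more negative in KD cells. BST2 had the smallest p among them, with a difference of -1.29 (SE 0.23, adjusted p = 0.328) that was -1.28 in experiment 1 and -1.30 in experiment 2. For the 6 members called in both lines it ran from -0.80 for OAS2 to -0.01 for IFIT1, with SE of 0.20 to 0.50. Other kept probes of these members had -0.99 for OASL, 0.44 for OAS2, and 0.57 and 0.02 for IFIT3. The precision thus does not separate an equal fall from one that is moderately steeper or shallower in KD cells. Across the 40 members the 48 h changes of KD and EV cells, which share no array, had a Pearson correlation of 0.795, given as a description of members measured on the same slides.

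**Figure D2:**
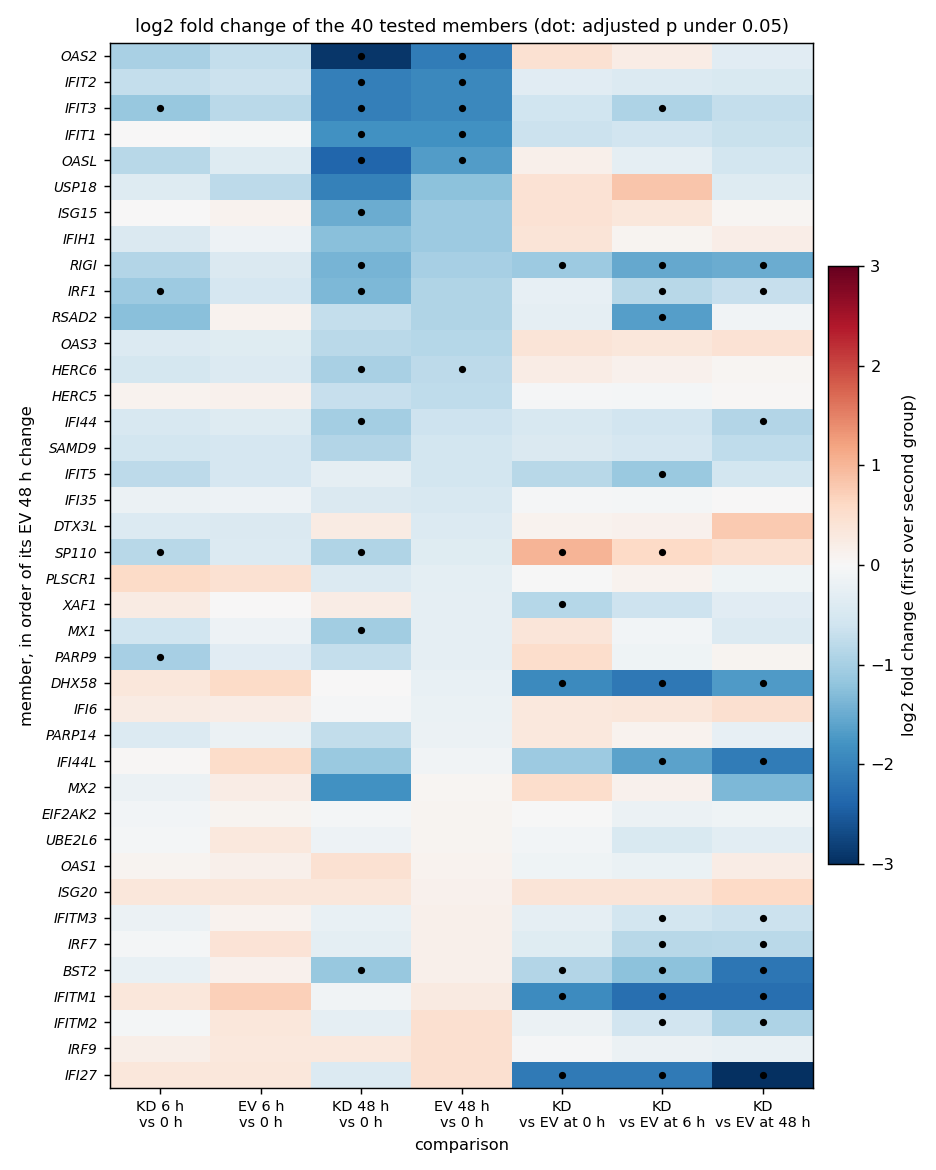
Log2 fold change (colour, first group over second) of the 40 tested members, in rows ordered by their 48 h change in EV cells, in 7 comparisons in columns, with a dot where the adjusted p was under 0.05. The members with the strongest fall at 48 h in EV cells, such as OAS2 with -2.91 in KD and -2.11 in EV cells, stand at the top. IFI27, with -2.12 between the lines at 0 h, stands at the bottom. Other members that differed between the lines, such as RIGI and DHX58, stand higher up.

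At 6 h fewer members passed than at 48 h in each line. In EV cells 0 of 40 passed, where 0.268% of all genes were lower, and 7 (17.5%) had an unadjusted p under 0.05, beside 17.6% of all genes. IFIT3 was -0.80 (adjusted p = 0.138) there and IFITM1 0.72 (adjusted p = 0.109). In KD cells 4 members (10.0%) were lower and 0 higher, where 3.25% of all genes were lower. These were IFIT3 with -1.13 (adjusted p = 0.0373), IRF1 with -1.09 (adjusted p = 0.0213), SP110 with -0.84 (adjusted p = 0.0234) and PARP9 with -1.0 (adjusted p = 0.049). The other kept probes of IFIT3 (-0.88 and -0.23), SP110 (-0.63 to -0.56) and PARP9 (-0.74) did not pass in the fit over all kept probes. The tested PARP9 probe had an adjusted p of 0.0551 in that fit. At an unadjusted p under 0.05 the members numbered 14 (35%) in KD cells, beside 21.2% of all genes. By the 1.5-fold rule of the study 8 members (20%) were lower in KD cells and 1 (2.5%) in EV cells. Of all 12336 genes, 644 and 424 were lower by this rule. PARP9, a partner of the ubiquitin ligase DTX3L, had signals of 768 and 771 at 0 h, 456 and 322 at 6 h and 519 and 428 at 48 h in KD cells. In EV cells PARP9 had 566 and 509, 400.2 and 444, and 376 and 523. Its 6 h arrays in KD cells lay below both 0 h arrays of that line. IFIT1 had 6 h values of 0.02 (adjusted p = 0.985) in KD and -0.06 (adjusted p = 0.935) in EV cells.

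The untreated lines also differed. In KD cells IFI27, IFITM1, DHX58, RIGI, BST2 and XAF1 were lower than in EV cells at 0 h, 6 of 40 (15%) where 8.71% of all genes were lower, and SP110 was higher, 1 of 40 (2.5%) where 9.50% of all genes were higher. The share of lower members was thus under 2 times that of all genes, and the lines differed at many genes. At 6 h 13 members (32.5%) were lower in KD cells and SP110 was higher, against 9.78% and 8.63% of all genes, and at 48 h 11 (27.5%) were lower and 0 higher, against 8.60% of all genes that were lower. The median log2 difference of the 40 members was -0.06, -0.23 and -0.36 at 0 h, 6 h and 48 h, beside 0.02, 0.01 and 0.01 over all genes. CD14, a marker of monocytes, differed between the lines as well, with 157 and 252 at 0 h, 105 and 76.4 at 6 h and 176 and 159.9 at 48 h in KD cells. In EV cells CD14 had 885 and 807, 646 and 808, and 508 and 615. PTPRC, the pan-leukocyte marker, was detected on 1 array and CD3E on 0. PECAM1, an endothelial marker, was detected on 12 arrays at 214.3 to 778.7 and CDH5 on 0. PECAM1 had 532 and 487 at 0 h, 679 and 409 at 6 h and 695 and 779 at 48 h in KD cells. In EV cells PECAM1 had 274 and 240.1, 235 and 249, and 214 and 407. KD values were above EV values at each time, and the difference passed at 48 h (1.32, adjusted p = 0.0352) and not at 0 h (0.99, adjusted p = 0.0781) or 6 h (1.12, adjusted p = 0.0539). Of the 6 markers of MDA-MB-231 cells, CD44, an adhesion receptor, was lower in KD cells at all 3 times, with log2 differences of -0.99 (adjusted p = 0.00413) at 0 h, -0.78 (adjusted p = 0.0101) at 6 h and -1.02 (adjusted p = 0.004) at 48 h, with 24078 and 18562 in KD and 44522 and 39406 in EV cells at 0 h. CAV1 was lower at 48 h (-0.46, adjusted p = 0.0464). The part of these differences in those of the members was not tested.

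IFI27 encodes a small interferon-induced protein, and its signals were 196 and 254 at 0 h, 288 and 279 at 6 h and 142 and 197 at 48 h in KD cells. In EV cells IFI27 had 792 and 1187, 1264 and 1202, and 1199 and 1548. Every KD array was below every EV array, by a log2 difference of -2.12 (SE 0.19, adjusted p = 0.000692) at 0 h, -2.12 at 6 h and -3.02 at 48 h, the first a 4.34-fold difference. The 48 h change was -0.42 (adjusted p = 0.235) in KD and 0.49 (adjusted p = 0.197) in EV cells, and the difference between these, -0.91 (SE 0.27, adjusted p = 0.633), did not pass. IFITM1, which blocks the entry of viruses at the plasma membrane, had 797 and 896 at 0 h, 978 and 1183 at 6 h and 621 and 983 at 48 h in KD cells. In EV cells IFITM1 had 2459.5 and 4019, 4029.9 and 6632, and 2891 and 4910.3. The log2 difference between KD and EV was -1.90 (SE 0.18, adjusted p = 0.000885) at 0 h, -2.27 at 6 h and -2.27 at 48 h, with no overlap of the lines. Its 48 h change was -0.11 (adjusted p = 0.755) in KD and 0.26 (adjusted p = 0.464) in EV cells.

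BST2 differed by -0.89 (SE 0.16, adjusted p = 0.0116) at 0 h, -1.24 (adjusted p = 0.00329) at 6 h and -2.18 (adjusted p = 0.000346) at 48 h, for which the signals are given above. RIGI was lower in KD cells at each time as well, with log2 differences of -1.09 (adjusted p = 0.0193) at 0 h, -1.53 at 6 h and -1.48 at 48 h. It is a member with a lower level in KD cells at 0 h and a fall at 48 h in KD cells. DHX58, a helicase related to RIGI that modulates its signal, was detected on 0 of 6 KD arrays and on 5 of 6 EV arrays, where its signals were 80.1 and 45.8 at 0 h, 68.2 and 119 at 6 h and 45.5 and 59.3 at 48 h. In KD cells DHX58 was below EV cells by at least 1.34-fold at 0 h (adjusted p = 0.0116), at least 1.81-fold lower at 6 h and at least 1.1-fold lower at 48 h. These small limits reflect a probe close to the detection level. It was kept only through EV groups, where it was brighter, so the filter selected it in this direction. XAF1, which binds an inhibitor of apoptosis, had 234 and 215 at 0 h, 219 and 328 at 6 h and 196 and 356 at 48 h in KD cells. In EV cells XAF1 had 376 and 436, 381 and 441, and 299 and 372. It was called lower in KD cells at 0 h and not at 6 h or 48 h, -0.85 (SE 0.22, adjusted p = 0.0364), and the other XAF1 probe had a difference of -0.73 there.

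SP110 stood against this direction. It was higher in KD cells at 0 h by 1.01 (SE 0.14, adjusted p = 0.00398) and at 6 h by 0.59 (adjusted p = 0.0268), and the value at 48 h was 0.46 (adjusted p = 0.0652). The 4 kept probes of SP110 differed by 0.07 to 1.15 at 0 h, of which 2 passed in a fit over all kept probes.

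**Figure D3:**
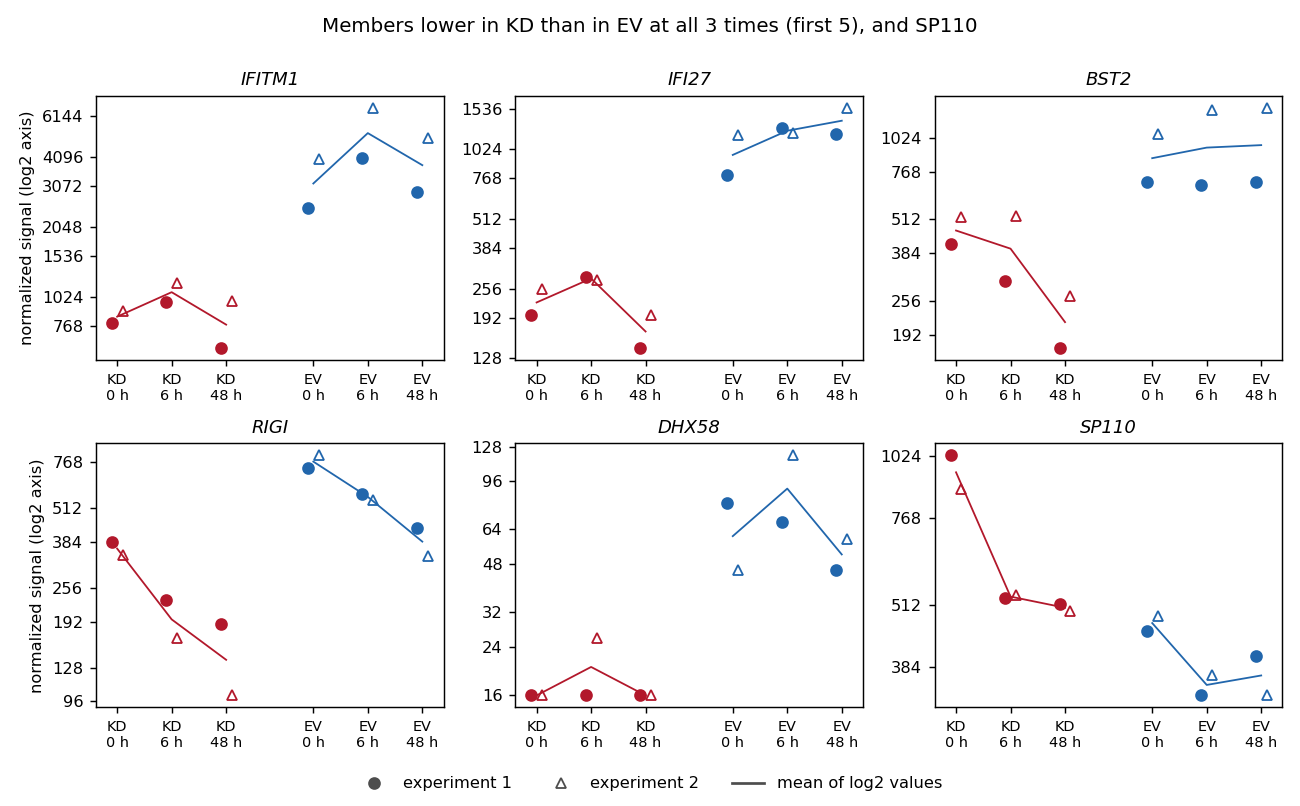
Normalized signal (log2 axis, values under 16 drawn at 16) of the 5 members lower in KD than in EV cells at all 3 times and of SP110, on each of the 12 arrays, KD groups on the left. IFITM1 and IFI27 show a step between the lines at every time, such as 142 and 197 in KD against 1199 and 1548 in EV cells at 48 h for IFI27, whereas RIGI also declines with time.

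Further members were called lower in KD cells at 6 h or 48 h and not at 0 h. None of these had a called difference between the lines in its change from 0 h. IFITM2 and IFITM3, relatives of IFITM1 that act in endosomes, were among these. IFITM2 had 16389.6 and 22196 at 0 h, 18195 and 18139 at 6 h and 13210.5 and 18868 at 48 h in KD cells. In EV cells IFITM2 had 18052 and 25651, 22973 and 32057, and 25171 and 36038. For IFITM3 the signals were 21701 and 25732 at 0 h, 19665 and 22372 at 6 h and 17258 and 23779 at 48 h in KD cells. In EV cells IFITM3 had 25453 and 32303, 25343 and 37101, and 24927 and 40094. IFITM2 differed by -0.58 (adjusted p = 0.0396) at 6 h and -0.93 (adjusted p = 0.00869) at 48 h, and IFITM3 by -0.55 (adjusted p = 0.0413) and -0.64 (adjusted p = 0.0271), while at 0 h the lines overlapped for both. The transcription factor IRF7, which drives type I interferon genes, had 374 and 381 at 0 h, 422 and 314 at 6 h and 266 and 361 at 48 h in KD cells. In EV cells IRF7 had 522 and 453, 694 and 600.5, and 516 and 571. It was lower in KD cells at 6 h (-0.83, adjusted p = 0.0314) and 48 h (-0.81, adjusted p = 0.0366), and the other IRF7 probe had differences of -0.69 and -0.34. IRF1 differed by -0.83 (adjusted p = 0.0186) at 6 h and -0.68 (adjusted p = 0.0373) at 48 h. IFIT3 had a difference of -0.93 (adjusted p = 0.0294) at 6 h, and IFI44 at 48 h of -0.89 (adjusted p = 0.0356). The other IFIT3 probes had -0.74 and -0.54 at 6 h and did not pass in the fit over all kept probes.

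IFIT5, which binds RNA ends, had 238 and 193 at 0 h, 103 and 149 at 6 h and 165 and 192 at 48 h in KD cells. In EV cells IFIT5 had 458 and 317, 271 and 267, and 275 and 245. It was lower in KD cells at 6 h (-1.12, adjusted p = 0.0204). IFI44L, a paralog of IFI44, read 106 and 43.7 at 0 h, 73.4 and 66.9 at 6 h and 24.7 and 40.4 at 48 h in KD cells. In EV cells IFI44L had 137 and 153, 171 and 263, and 132 and 136. On the KD arrays it was detected on 2 of 2 at 6 h and on 0 of 2 at 48 h, with a difference of -1.60 (adjusted p = 0.0398) from EV cells at 6 h. At 48 h it was below EV cells by a factor of at least 2.85 (adjusted p = 0.0185). The second IFI44L probe had differences of 0.12 and -0.08. RSAD2, or viperin, a radical enzyme that blocks viral replication, was near the detection level, with 57.3 and 51.3 at 0 h, 32.5 and -7.86 at 6 h and 42.8 and 25.4 at 48 h in KD cells. In EV cells RSAD2 had 50.3 and 86.1, 80.3 and 63.4, and 44.1 and 28.5. At 6 h it was at least 1.43-fold lower in KD cells (adjusted p = 0.0252).

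The members lower in untreated KD cells were then set beside those that fell in EV cells at 48 h. No member was in both groups: the 6 lower in KD cells at 0 h (IFI27, IFITM1, RIGI, DHX58, BST2, XAF1) and the 6 lower at 48 h in EV cells (IFIT1, IFIT2, IFIT3, OAS2, OASL, HERC6) shared 0. With 6 of 40 in each group little overlap could arise in any case, and nothing is read from the count of 0. Both comparisons use the EV arrays at 0 h, so each is given by its own values. The 6 that fell in EV cells differed between the untreated lines by -0.65 (IFIT1), -0.34 (IFIT2), -0.60 (IFIT3), 0.46 (OAS2), 0.16 (OASL) and 0.23 (HERC6), with adjusted p from 0.11 for IFIT3 to 0.709 for OASL. IFIT3 was not uniform here, since another of its probes differed by -1.14 at 0 h and passed in the fit over all kept probes. The 6 lower in untreated KD cells changed at 48 h in EV cells by 0.49 (IFI27), 0.26 (IFITM1), 0.16 (BST2), -0.28 (XAF1), -0.22 (DHX58) and -1.0 (RIGI). Of these RIGI came nearest to the threshold (adjusted p = 0.0776) and had changes of -0.75 and -1.26 in the 2 experiments.

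With the difference between the lines taken from one experiment and the 48 h change of EV cells from the other, so that no array is shared, the Pearson correlation over the 40 members was -0.34 with the line difference of experiment 1 and -0.08 with that of experiment 2. For comparison it was 0.80 between the experiments for each of the 2 quantities. These correlations are across genes measured on the same arrays and describe these arrays only.

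**Figure D4:**
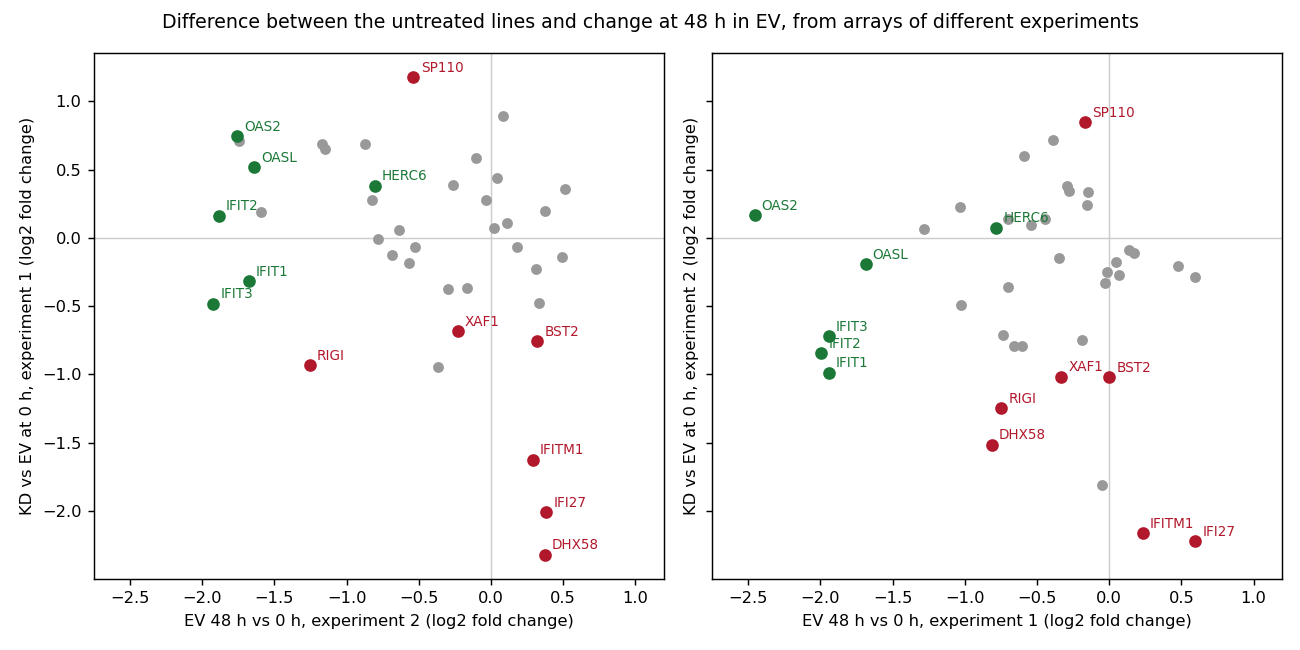
Log2 difference of KD against EV cells at 0 h (vertical axis) and log2 change of EV cells at 48 h (horizontal axis) for the 40 members, with the 2 quantities taken from different experiments in each panel. Members called between the lines at 0 h are red and those called at 48 h in EV cells are green, and IFITM1 and IFI27 lie low near the centre or right while OAS2 and OASL lie far to the left near or above 0.

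A direct comparison of untreated KD cells with EV cells at 48 h does not use the EV arrays at 0 h. There 14 members (35.0%) were higher in untreated KD cells, against 13.6% of all genes, and 5 (12.5%) were lower, against 12.0% of all genes. The 14 were IFIT1, IFIT2, IFIT3, IFI35, IFIH1, ISG15, OAS2, OAS3, OASL, IRF1, SP110, PARP9, HERC5 and HERC6, and the 5 were IFITM1, IFITM2, IFI27, DHX58 and BST2. OAS2 was 2.56 (SE 0.36, adjusted p = 0.00276), OASL 1.83 (adjusted p = 0.00279) and ISG15 1.53 (adjusted p = 0.00303), whereas IFI27 was -2.61 (SE 0.19, adjusted p = 0.000188) and IFITM1 -2.16 (adjusted p = 0.00034). RIGI did not pass, at -0.09 (adjusted p = 0.814), so its level in untreated KD cells was not separated from that of EV cells after 48 h. Of those not yet described, IFIH1, a helicase that senses long double-stranded RNA, had 933 and 690.0 at 0 h, 553 and 632 at 6 h and 365 and 308 at 48 h in KD cells. In EV cells IFIH1 had 579 and 659, 424 and 725, and 238 and 360.1. It was 1.46 (adjusted p = 0.0107) in this comparison, and its 48 h changes of -1.26 (adjusted p = 0.0529) in KD and -1.08 (adjusted p = 0.1) in EV cells did not pass. OAS3, a synthetase like OAS2, had 338 and 323 at 0 h, 218 and 282 at 6 h and 187 and 192 at 48 h in KD cells. In EV cells OAS3 had 209 and 303, 159 and 242, and 143 and 135. Here OAS3 was 1.25 (adjusted p = 0.0052). HERC5, the ligase that attaches ISG15 to proteins, had 7168 and 5416 at 0 h, 6693 and 6609.6 at 6 h and 4251 and 3513 at 48 h in KD cells. In EV cells HERC5 had 5916 and 6967, 6255 and 7755, and 3640.0 and 3932. Its difference was 0.72 (adjusted p = 0.031). IFI35 read 1299 and 1433 at 0 h, 1101 and 1340.2 at 6 h and 879 and 1164 at 48 h in KD cells. In EV cells IFI35 had 1251 and 1585, 1138 and 1429.5, and 983 and 1020.4. Its difference was 0.45 (adjusted p = 0.0376).

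Called in no comparison were 12 members: IFI6, ISG20, MX2, OAS1, IRF9, SAMD9, PARP14, DTX3L, USP18, UBE2L6, EIF2AK2 and PLSCR1. Their smallest adjusted p was 0.0505, for SAMD9 in KD against EV cells at 48 h (-0.76). IRF9, the DNA-binding part of the STAT complex, changed at 48 h by 0.31 (adjusted p = 0.431) in KD and 0.49 (adjusted p = 0.252) in EV cells. USP18, the protease that removes ISG15, was detected on 0 of 2 arrays at 48 h and on 2 of 2 at 0 h in each line, which bounds its 48 h change at 1.91-fold or more in KD (adjusted p = 0.0678) and 1.39-fold in EV cells (adjusted p = 0.236). ISG20, an exonuclease, is named as 1 of the 5 brightest members, the others being IFITM3, IFITM2, ISG15 and HERC5, although brightness is not comparable between probes. It had 4727 and 4237 at 0 h, 5337 and 5955 at 6 h and 5252 and 6029 at 48 h in KD cells. In EV cells ISG20 had 2545 and 4570.4, 3536 and 5318, and 2865 and 4835.

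On single arrays the median deviation of the 34 members detected on all arrays, each from its own 12-array mean on the log2 scale, was 0.15 and 0.05 at 0 h, -0.12 and -0.03 at 6 h, and -0.50 and -0.38 at 48 h in KD cells, against 0.21 and 0.37, 0.08 and 0.39, and -0.27 and 0.05 in EV cells. The 48 h arrays were below the 0 h arrays of the same line and experiment in each case. Experiment 2 was above experiment 1 in all EV groups.

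**Figure D5:**
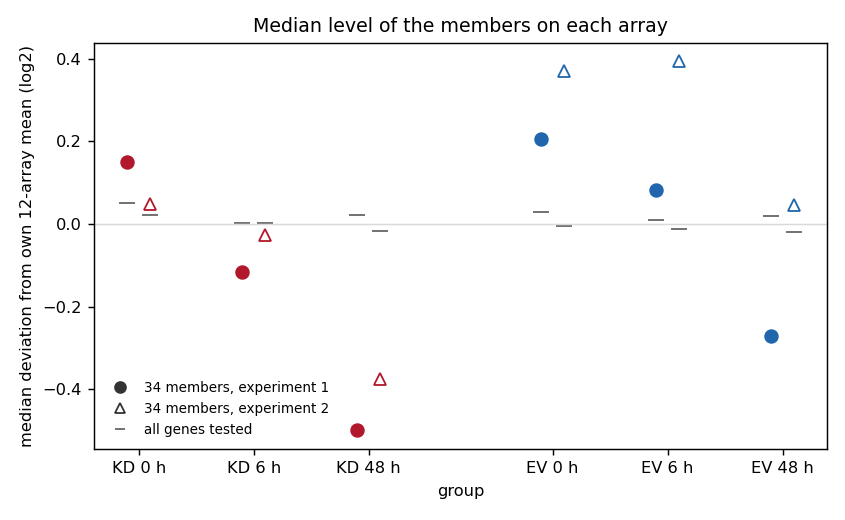
Median log2 deviation of the 34 members detected on every array from their own 12-array means, per array, with the same median over all genes tested as grey dashes and KD groups on the left. The KD arrays at 48 h are lowest, at -0.50 and -0.38, and the medians of all genes lie between -0.02 and 0.05.

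Upstream of these genes, the ligands were at the detection level. Of 30 probes for 21 interferon genes, 25 were detected on 0 arrays and 5 on 1 or 2, and none was tested. Among 9 receptor and kinase genes, all tested, 0 passed at 48 h in EV cells. IFNAR1, a chain of the type I receptor, had 844 and 816 at 0 h, 619 and 464 at 6 h and 478 and 538 at 48 h in KD cells. In EV cells IFNAR1 had 671 and 711, 609 and 513, and 530.1 and 520.0. Its 48 h changes were -0.71 (adjusted p = 0.0499) in KD and -0.40 (adjusted p = 0.217) in EV cells. IFNAR2, the other chain, had 0.05 (adjusted p = 0.829) in KD and 0.00 (adjusted p = 0.999) in EV cells. IFNLR1, the receptor of type III interferons, was higher in untreated KD cells, at 223 and 242 against 43.1 and 44.4 in EV cells (2.41, adjusted p = 0.00347).

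Among 7 tested transcription factors and inhibitors, SOCS1, a feedback inhibitor of JAK kinases, was higher in untreated KD cells, at 332 and 308 against 150.2 and 164 (1.03, adjusted p = 0.0242). It was lower at 48 h in KD cells, at 121 and 93.6 (-1.59, adjusted p = 0.02). Of 11 tested genes of nucleic acid sensing, IKBKE, a kinase that phosphorylates interferon regulatory factors, was the one called at 48 h in EV cells, with 323 and 323 at 48 h against 573 and 613 at 0 h (-0.88, adjusted p = 0.0479). In KD cells it had 204 and 262 at 48 h against 494 and 572 at 0 h (-1.20, adjusted p = 0.017). A list of 40 other interferon-stimulated genes had 31 tested, of which 0 were lower at 48 h in EV cells, beside 0.778% of all genes. At 48 h in KD cells 3 of the 31 were lower and 0 higher, where 2.75% of all genes were lower. In KD against EV cells at 0 h 4 were lower and 2 higher, beside 8.71% and 9.50% of all genes, shares close to those of the list. LAMP3, a lysosomal protein, was 297 and 306 in KD and 484 and 582 in EV cells (-0.82, adjusted p = 0.00499), and the others that were lower were EPSTI1 (-1.49, adjusted p = 0.03), GBP4 (-1.38, adjusted p = 0.0429) and LGALS9 (at least 1.27-fold, adjusted p = 0.0194). LGALS9 was kept only through the EV arrays at 0 h, where it was brightest, so the filter selected it in this direction. The 2 that were higher were GBP1, a guanylate-binding GTPase, at 3439 and 3441 in KD and 1623 and 1886 in EV cells (0.98, adjusted p = 0.00487), and HELZ2 (0.96, adjusted p = 0.0348).

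How firmly the calls stand varied. In every comparison of 2 groups, leaving out an array of either group lowered the number of all genes called. Calls were thus lost over all genes as well as among the members. Leaving out each of the 12 arrays in turn kept the sign of all 74 calls described here, and 21 of them passed every time, among them IFI27 and IFITM1 between the lines at all 3 times. The 48 h falls in EV cells were not of this kind. All their calls were lost without any one of the 4 EV arrays at 0 h or 48 h. In those fits the calls of all genes were lost, so the loss says nothing about these members alone. Several or most of them were also lost without any other single array, where calls over all genes fell too. The log2 fold changes of these 6 falls moved least for HERC6, from -0.85 to -0.74. They moved most for OAS2, from -2.42 to -1.80. The calls of HERC6 and OAS2 were lost whichever array was left out. In KD cells the 13 calls at 48 h depended most on the 48 h array of experiment 2, without which few calls of any gene remained. The call of IFI44 there was lost whichever array was left out. Between the untreated lines 3 of 7 passed without the KD array of experiment 2, and 4 without either EV array. At 6 h in KD cells most of the 4 calls were lost without any 1 of the 4 arrays compared. Most calls over all genes were lost there too. Between the lines at 6 h, 4 to 8 of 14 passed once 1 of its 4 arrays was dropped. The same step at 48 h left 4 to 7 of 11. For untreated KD against EV cells at 48 h, 11 of 19 passed without the EV array of experiment 1 and 12 without the KD array of experiment 1.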

How the data were processed

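RNA of 12 cultures was measured on Illumina HT-12 arrays. The authors deposited normalized intensities, for which GenomeStudio subtracted background and applied quantile normalization, and, in another table, average bead signal intensities with a detection p-value for each probe. The version of that software is not given in the sources used here. The normalized intensities were used, because the deposited bead signals did not follow them on 5 arrays of the second slide (rank correlation 0.816 to 0.904), and 3 of those columns are copies of first-slide columns. On these 5 arrays the detection p-values followed the normalized values.

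Values under 16 (38.7%) were raised to 16 before log2 was taken. Changes of dim probes are understated by this floor. Of 47302 probes, 22207 were kept, those with a detection p under 0.05 on both arrays of any group. The platform annotation named a single gene for 30105 probes, several for 8 and no gene for 17189, and 30066 of the gene identifiers were found in a current table that changed 0 symbols. The probe with the highest mean stood for a gene. limma 3.58.1 in R 4.3.3 fitted the 6 groups blocked on the slide, with 5 residual degrees of freedom and 2.43 of the prior, and 10 contrasts were tested over 12336 genes. The model was also run on simulated data with independent noise, no slide effect and changes in EV cells at 48 h only. That run does not test the block or the other contrasts, and nothing is read from it here. The pairing of arrays comes from the chip numbers in the labels, which place each group once on each of the 2 slides, and that each slide is an independent experiment is read from this layout. Deviations from the group means correlated between arrays of 1 slide at -0.02 to 0.28 (13 of 15 pairs over 0.1).

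Members called in at least 1 contrast are described on every array, the rest by counts and the 5 brightest by name. Genes of the pathway lists are named when called at 48 h in EV cells or between the untreated lines, with IFNAR1 and IFNAR2 always. The members and lists were chosen with earlier results of these data known. Alternatives were no block, other floors, an added constant, other detection filters, all probes, cyclic loess, an intensity trend, the 1.5-fold rule of the study, each array left out, and the bead signals of the first slide. Python 3.11.15 with pandas 2.3.3, numpy 2.4.6 and matplotlib 3.10.9 made tables and figures. Promoters were RefSeq windows on GRCh38.p14. A gene of the pathway lists is not reported here.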

Additional observations from a re-analysis of the deposited data

How the results depend on the processing

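The counts of members called were most sensitive at 48 h in EV cells, where 6 members passed. Without the slide as a replicate block 3 passed, with a detection p under 0.01 on all 12 arrays 12, with no filter on dim probes 1, with an intensity trend in the prior 14, and by the 1.5-fold rule of the study 12. Of all genes, 136 were higher and 96 lower in the main fit. The first 4 settings called 75, 740, 190 and 878 of all genes in either direction, and the 1.5-fold rule gave 500 higher and 449 lower. At 6 h in EV cells the strict filter, the trend and the 1.5-fold rule gave 2 each in place of 0. At 6 h in KD cells they gave 8 each in place of 4, and no filter gave 2. At 48 h in KD cells the trend gave 21 in place of 13. Over all genes it called 1316 there, where the main fit had 300 higher and 339 lower. Between the lines no filter gave 7 in place of 14 at 6 h and 6 in place of 11 at 48 h. In each of these cases the count over all genes moved in the same direction, though not by the same proportion. With no filter, 1702 of all genes were called between the lines at 6 h, where the main fit had 1065 higher and 1207 lower. At 48 h the count was 1536, where the main fit had 973 higher and 1061 lower. Whether the members shifted more than other genes was not tested. Removing the block moved no other count by over 1.5 times. Filters change the number of genes over which p-values are adjusted, and the cause of the other shifts was not tested. With 1 array left out, the counts ran from 0 to 4 at 48 h in EV cells, 0 to 3 at 6 h and 0 to 12 at 48 h in KD cells, 3 to 8 at 0 h, 4 to 13 at 6 h and 4 to 11 at 48 h between the lines, 12 to 19 for untreated KD against EV cells at 48 h, and stayed at 0 for EV at 6 h and both interactions. A group then holding 1 array is assumed to vary like the others. In each comparison of 2 groups the count over all genes fell as well when an array of either group was left out. For single members 1202 values kept their side of the threshold, 329 no longer passed, 13 moved beyond the replicate spread and 0 changed direction. Signals near 42.2 to 51.8 limit DHX58, RSAD2, USP18, OAS2 and IFI44L.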
